A study of Mus musculus with 28 samples.

Results

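The Hox cluster genes were followed in hair follicle stem cells of old and young mice. Members were all genes whose symbol is Hoxa, Hoxb, Hoxc or Hoxd plus a number, in any of the 5 deposited tables. That gave 26 genes of the 18274 symbols in the tables, out of 39 such genes in the RefSeq table of assembly GRCm38.p6. Together they carried 59 annotated peaks, of which 17 were H3K27me3 peaks (7 genes), 20 H3K4me3 peaks (13 genes), 14 Pol2 peaks (10 genes) and 8 ATAC-seq peaks (8 genes), and 1 gene was listed in the RNA table. The 13 genes that no table names were Hoxa6, Hoxa11, Hoxa13, Hoxb2, Hoxb8, Hoxb13, Hoxc5, Hoxc10, Hoxd4, Hoxd10, Hoxd11, Hoxd12 and Hoxd13. A peak is annotated to 1 nearby start site, so a gene without its own row can still lie inside a wide peak annotated to a neighbour, and gene positions were used to find such cases.

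The old group was 24 months and the young group 6 months of age, and in both the stem cells were sorted from skin epidermis as CD34-positive, α6-integrin-positive cells by flow cytometry. No transgene, deletion or treatment is given for either age, and the labels write the strain as 132-C67BL/6J. ATAC-seq, which measures open chromatin, had 4 old and 4 young samples, H3K27me3 ChIP-seq 3 and 3, H3K4me3 ChIP-seq 2 and 2, ChIP-seq of RNA polymerase II (Pol2) 2 and 2, and RNA-seq 3 and 3. The series calls them biological replicates and its title asks about open chromatin at promoters that carry both histone marks.

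Hox genes encode homeodomain transcription factors that set position along the body axis. Within each cluster they lie in order of their paralog number, low numbers being used in the front of the embryo and high numbers towards the tail. H3K27me3, laid down by Polycomb, marks Hox genes that are kept silent, while H3K4me3, laid down by the Trithorax group, marks promoters that are active or poised. Adult skin cells keep part of this positional code, and Hoxc13 has a further role in the hair follicle, where it is needed for normal hair shafts and activates hair keratin genes.

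Markers of the labelled cell type carried H3K4me3. An H3K4me3 peak within 1 kb of a start site was present for 10 of 10 markers of these cells, at log2 levels of 10.4 to 14.81 in old and 12.07 to 16.38 in young cells of the authors' deposited table. Markers of dermal fibroblasts, which also express Hox genes, had one at 5 of 10 genes in the authors' deposited table, at log2 levels of 5.06 to 9.35 in old and 7.25 to 10.73 in young cells, with none at Col3a1, Dcn and Lum. They had a Pol2 promoter peak at 0 of 10 genes, and immune markers had an H3K4me3 peak at 0 of 6. An H3K4me3 promoter peak was present at 2 of 5 melanocyte markers (log2 levels 6.44 and 10.01 in old, 7.58 and 11.25 in young cells), 2 of 5 markers of interfollicular epidermis (8.56 and 9.67 in old, 9.41 and 10.95 in young cells), 1 of 4 of endothelium and 1 of 4 of neurons and glia in the authors' deposited table. The last also had a Pol2 promoter peak at 1 of 4 genes. The part of other cells in the Hox values was not tested. In these bulk samples fewer cells with a mark and less of the mark per cell cannot be told apart.

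The promoters of 4 Hox genes show the range of sequence in the clusters. Each is the RefSeq window from 250 bases before to 50 bases after the start site, on assembly GRCm38.p6, with CG dinucleotides in capitals. Hoxa2 (chr6:52164782-52165081, minus strand), a hindbrain and head gene, had the one Hox ATAC-seq peak with more counts in old cells. Hoxa3 (chr6:52213018-52213317, minus strand), needed for thymus and parathyroid, was the Hox gene listed in the RNA table. Hoxa13 (chr6:52260831-52261130, minus strand), a limb and urogenital gene, lay under H3K27me3 alone. Hoxd1 (chr2:74762730-74763029, plus strand) lay under both marks and had the Hox H3K4me3 peak with the lowest old to young ratio.
Hoxa2: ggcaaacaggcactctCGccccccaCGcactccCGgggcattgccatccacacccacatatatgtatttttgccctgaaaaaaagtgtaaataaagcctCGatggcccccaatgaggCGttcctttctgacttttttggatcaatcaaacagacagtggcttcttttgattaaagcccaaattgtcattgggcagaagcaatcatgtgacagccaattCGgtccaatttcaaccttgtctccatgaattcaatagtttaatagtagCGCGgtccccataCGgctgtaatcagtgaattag
Hoxa3: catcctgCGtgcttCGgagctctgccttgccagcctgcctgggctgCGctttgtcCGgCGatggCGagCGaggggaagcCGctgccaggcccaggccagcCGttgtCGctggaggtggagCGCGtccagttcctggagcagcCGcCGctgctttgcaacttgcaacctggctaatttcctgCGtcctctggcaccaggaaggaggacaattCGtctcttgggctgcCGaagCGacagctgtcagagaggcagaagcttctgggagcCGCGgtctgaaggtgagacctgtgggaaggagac
Hoxa13: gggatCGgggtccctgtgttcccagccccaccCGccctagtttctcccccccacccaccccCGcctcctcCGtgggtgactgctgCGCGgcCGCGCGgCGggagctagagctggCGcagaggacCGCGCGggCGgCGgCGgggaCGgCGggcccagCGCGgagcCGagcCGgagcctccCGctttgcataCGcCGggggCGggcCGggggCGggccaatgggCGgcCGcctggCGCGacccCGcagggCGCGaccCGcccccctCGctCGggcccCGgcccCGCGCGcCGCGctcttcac
Hoxd1: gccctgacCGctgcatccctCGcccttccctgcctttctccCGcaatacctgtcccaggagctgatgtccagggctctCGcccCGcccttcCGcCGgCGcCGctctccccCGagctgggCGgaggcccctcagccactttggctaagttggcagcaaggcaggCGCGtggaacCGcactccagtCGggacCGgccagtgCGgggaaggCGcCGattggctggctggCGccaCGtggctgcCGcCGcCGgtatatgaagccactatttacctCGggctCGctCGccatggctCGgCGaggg
The windows hold 9 CG in Hoxa2, 20 in Hoxa3, 45 in Hoxa13 and 29 in Hoxd1. At least as many are found in 45.8%, 26.5%, 1.93% and 12.9% of 32851 RefSeq promoter windows, in that order. A window was found for 22 of the 39 Hox genes, 24 windows in all, with a median of 14.5 CG against 7 over all windows. The Pbx-Hox motif TGATTNAT (reverse strand ATNAATCA) was searched on both strands, and the windows of Hoxa2 and Hoxd11 held it, 2 of 24, against 3.22% of all windows. TATAAA (reverse strand TTTATA) was found in 4 of 24, those of Hoxa10, Hoxb8, Hoxd4 and Hoxd13, against 13.6% of all. Neither motif contains CG, and overlaps between them were not removed. These are matches of letters and not shown sites.

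The clusters also hold miRNA genes that target Hox transcripts, which share seeds across clusters. Their mature forms are shown from RefSeq with the seed, bases 2 to 8, in capitals.
mmu-miR-196a-5p: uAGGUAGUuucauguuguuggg
mmu-miR-196b-5p: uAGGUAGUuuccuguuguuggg
mmu-miR-10a-5p: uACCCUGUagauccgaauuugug
mmu-miR-10b-5p: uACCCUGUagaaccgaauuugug
The miR-196 pair shares the seed AGGUAGU and the miR-10 pair ACCCUGU. Mir196b lies between Hoxa9 and Hoxa10 at chr6:52230129-52230150, under both the Hoxa4-annotated H3K4me3 peak and the Hoxa10-annotated H3K27me3 peak. Mir196a-1 (chr11:96265187-96265208) and Mir196a-2 (chr15:102973365-102973386) lay under H3K27me3 alone, with H3K4me3 peaks nearby. Mir10a (chr11:96317186-96317208), next to Hoxb4, lay under H3K4me3 and Pol2 peaks. Mir10b (chr2:74726074-74726096), inside the Hoxd3 to Hoxd4 stretch, lay under H3K27me3 alone.

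Each cluster was divided into an H3K4me3 side and an H3K27me3 side, except Hoxd. Of 39 Hox genes, 19 were touched only by H3K4me3 peaks, among them Hoxa2 to Hoxa7, Hoxb1 to Hoxb7, Hoxc4, Hoxc5, Hoxc6, Hoxc8 and Hoxc13. Another 11 were touched only by H3K27me3 peaks, which were Hoxa11, Hoxa13, Hoxb13, Hoxc10, Hoxc11, Hoxc12, Hoxd4, Hoxd10, Hoxd11, Hoxd12 and Hoxd13. Both marks touched 9 genes, Hoxa9, Hoxa10, Hoxb8, Hoxb9, Hoxc9, Hoxd1, Hoxd3, Hoxd8 and Hoxd9, and no Hox gene had neither. A Pol2 peak touched 12 of the 19 genes with H3K4me3 alone, 1 of the 9 with both marks (Hoxb8) and 0 of the 11 with H3K27me3 alone. These classes count a touch anywhere in the gene, which need not be at its promoter. The promoter windows of Hoxa10 lay under H3K27me3 without H3K4me3, and that of Hoxb8 under H3K4me3 without H3K27me3 or Pol2. The Pol2 peak on Hoxb8 was annotated to Hoxb7 and covered 11.6% of Hoxb8. Hoxc12, classed under H3K27me3 alone, had a called H3K4me3 peak 1089 bp upstream of its annotated start site. Whether both marks sat on the same chromatin or in different cells was not tested.

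In Hoxa, Hoxb and Hoxc the Hox genes changed from one mark to the other at paralogs 8 to 10, apart from Hoxc13. H3K4me3 covered 72.0% of the 106 kb Hoxa cluster, 64.0% of the 174 kb Hoxb cluster and 56.1% of the 116 kb Hoxc cluster, and H3K27me3 covered 36.7%, 49.8% and 49.2% of these clusters. The wide H3K4me3 and H3K27me3 peaks overlapped by 8.2 kb at Hoxa9 and by 12.2 kb at Hoxb8 and Hoxb9. Past Hoxb9, further H3K4me3 peaks annotated to Mir196a-1 and ENSMUSG00000078706, 0.787 to 9.79 kb wide, lay wholly within H3K27me3. In Hoxc the Hoxc8-annotated peak overlapped by 2.8 kb, and the 8.55 kb Hoxc9 peak beside it lay wholly within H3K27me3. The 96.9 kb Hoxd cluster differed in its layout, with H3K27me3 over 99.9% of it, H3K4me3 over 21.2% and no Pol2 peak. Hoxc13 stood alone at the far end of its cluster, where a 7.08 kb H3K4me3 peak sat in a 10.5 kb gap between H3K27me3 peaks.

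**Figure D1:**
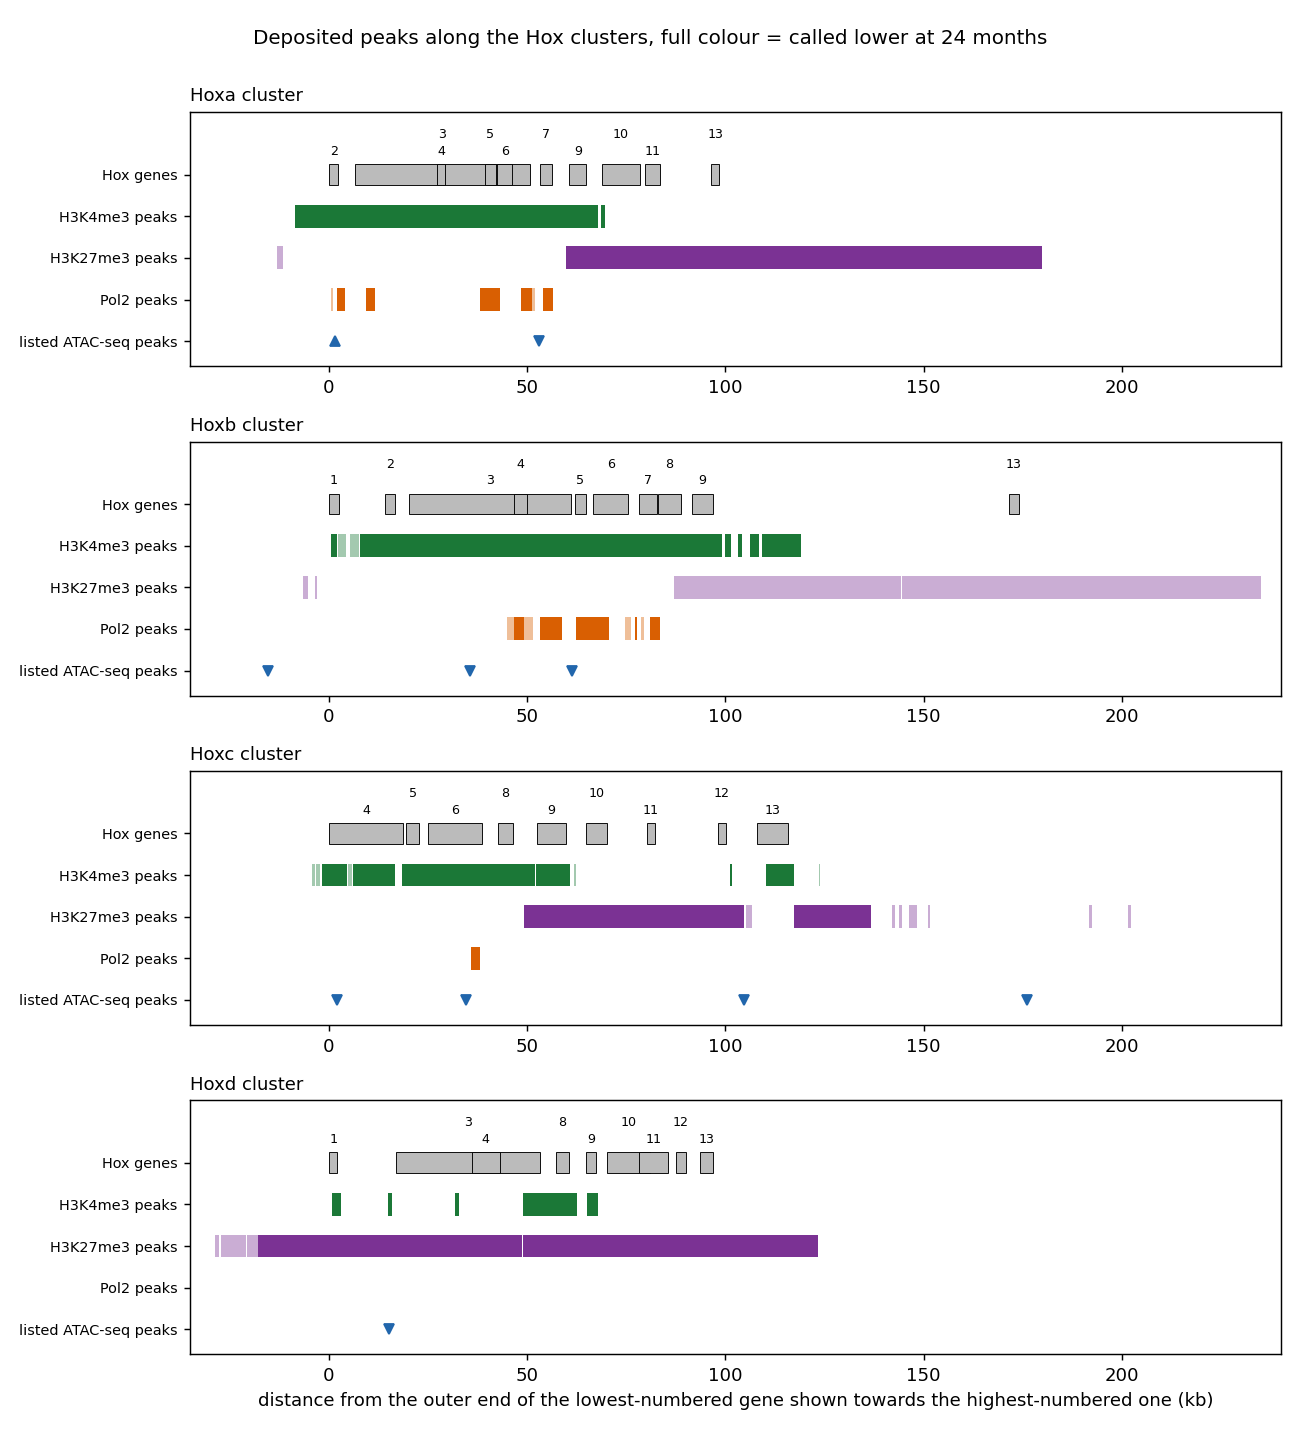
Peaks of each deposited table along the 4 Hox clusters (1 gene and 1 Pol2 peak are not drawn), drawn from the outer end of the lowest-numbered gene shown (kb), with gene numbers above grey gene bodies. Full colour marks peaks called lower at 24 months (authors' FDR under 0.05) and pale colour peaks not called. Triangles are listed ATAC-seq peaks, pointing up where the mean count was higher at 24 months and down where it was lower. Hoxd lies under H3K27me3 throughout and has no Pol2 peak. Genes of the other clusters change from H3K4me3 to H3K27me3 near paralog 9, with further H3K4me3 peaks past Hoxb9 and at Hoxc13.

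Of the 17 H3K27me3 peaks annotated to Hox genes, 4 were called lower in old cells (FDR under 0.05 in the authors' deposited table) and 0 higher. Over the whole table, 2.6% of 67985 peaks were called lower and 2.66% higher. Peaks of 10 kb or more were called lower in 15.6% of 3163 cases and higher in 2.85%. Peaks of 50 kb or more were called lower in 28.0% of 161 cases and higher in 0.621%. These width classes were added after the data were seen.

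Width separated the Hox peaks, but so did position, since the narrow ones were all annotated as distal intergenic and mostly lay outside the clusters. The 5 Hox peaks of 10 kb or more had log2 differences (old minus young) of -0.67 to -0.46 in the authors' deposited table, and the 12 narrower ones -0.22 to 1.14 with 0 called and FDR from 0.414 to 0.995. Of the 5 wide peaks, 4 were called. The 161 peaks of 50 kb or more had a median of -0.23 and a lowest value of -0.84 in the authors' deposited table. The median log2 difference over the 17 Hox peaks was 0.04, beside 0.12 for the whole of the authors' deposited table, and 10 of the 17 had a positive difference. Those 10 all lay more than 5 kb outside their cluster. Among peaks within 5 kb of a cluster, whatever gene they were annotated to, 5 of 10 were called lower and 0 higher. The parts of width and position were not tested. The Hox median was -0.22 with each gene and -0.58 with each base weighted equally, so its sign depends on the weighting.

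Among peaks annotated to a Hox gene, the one with the lowest p lay over Hoxc9, Hoxc10, Hoxc11 and Hoxc12, posterior genes of limb and trunk patterning. It spans 55.5 kb at chr15:102932150-102987624 and is annotated to Hoxc11. Its log2 level was 13.58 in old and 14.25 in young cells of the authors' deposited table, a log2 difference of -0.67 with an FDR of 2.14e-05. The Hoxa10-annotated peak spans 120147 bp at chr6:52222174-52342320, rank 14 by width of all H3K27me3 peaks, and covers Hoxa9, Hoxa10, Hoxa11 and Hoxa13, genes of limb and reproductive tract patterning. It had log2 levels of 14.6 in old and 15.18 in young cells in the authors' deposited table, with a log2 difference of -0.58 and an FDR of 0.000133. Both were therefore lower in old cells.

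The Hoxd cluster was split between a pair of H3K27me3 peaks that meet between Hoxd8 and Hoxd4. The Hoxd1-annotated one, 66.6 kb at chr2:74716315-74782904 over Hoxd1, Hoxd3 and Hoxd4, had log2 levels of 13 in old and 13.58 in young cells of the authors' deposited table, a log2 difference of -0.58 and an FDR of 0.000303. The other, 74.4 kb, is annotated to Evx2, a homeobox gene beside Hoxd13, and runs over Hoxd13 to Hoxd8. Its log2 level was 13.71 in old and 14.35 in young cells of the authors' deposited table, a log2 difference of -0.64 with an FDR of 5.47e-06. Both peaks, which together cover nearly all of Hoxd, were thus called lower in old cells.

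Hoxb gave smaller differences that were not called. The Hoxb9-annotated peak (57.3 kb, over Hoxb8 and Hoxb9) had log2 levels of 12.71 in old and 13.16 in young cells of the authors' deposited table, a log2 difference of -0.46 and an FDR of 0.0955. The peak over Hoxb13, a gene of tail and prostate patterning, is annotated to the neighbour Ttll6 and spans 90.5 kb. It had log2 levels of 14.09 in old and 14.41 in young cells of the authors' deposited table, a log2 difference of -0.32 and an FDR of 0.117. The difference between clusters was not tested. Near Hoxb1 a pair of peaks of 1.24 and 0.444 kb had log2 differences of 1.14 and -0.09 in the authors' deposited table, neither called.

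All 20 H3K4me3 peaks annotated to Hox genes had lower levels in old cells, and 14 were called lower and 0 higher. Of all 21390 H3K4me3 peaks, 79.1% were called lower and 0.281% higher. The median log2 difference was -1.31 over the Hox peaks and -1.37 for the whole of the authors' deposited table, and 96.3% of all peaks had a negative difference. The lower H3K4me3 at Hox genes was therefore near that of the table as a whole. How the ChIP libraries were scaled is not known from the labels or headers, so a loss of the mark and a difference in scaling cannot be told apart. Fox genes had 81.6% and homeobox genes outside the clusters 90.0% of their H3K4me3 peaks called lower.

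The Hox domains were among the widest H3K4me3 peaks of these cells. The widest of all 21390 was annotated to Hoxb6 and spans 91.4 kb at chr11:96269037-96360436, over Hoxb2 to Hoxb9. Its log2 level was 16.16 in old and 17.66 in young cells of the authors' deposited table, a log2 difference of -1.51 (FDR 0.00145). The second widest, annotated to Hoxa4, spans 76.5 kb at chr6:52153834-52230343 over a stretch that includes Hoxa2 to Hoxa7 and Hoxa9. In the authors' deposited table it had log2 levels of 15.19 in old and 16.77 in young cells, a log2 difference of -1.58 (FDR 0.000177). The Hoxc8-annotated domain over Hoxc4, Hoxc5, Hoxc6 and Hoxc8, rank 11 with 33.7 kb, had log2 levels of 13.65 in old and 14.96 in young cells in the authors' deposited table, a log2 difference of -1.31 (FDR 0.000244).

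Width was not the only feature of these domains. Per kb of peak, the Hoxb6-annotated domain had log2 levels of 9.65 in old and 11.15 in young cells in the authors' deposited table, above 99.8% and 99.9% of all H3K4me3 peaks. The Hoxa4-annotated domain stood at the 99.4 percentile in old and the 99.7 percentile in young cells per kb, from the authors' deposited table. Some other Hox peaks stood lower, both within and outside H3K27me3. The Hoxc9 peak, wholly within H3K27me3, stood at the 46.4 percentile in old and 48.3 in young cells per kb in the authors' deposited table. The 6.24 kb Hoxc4 peak, which no H3K27me3 peak overlapped, stood at the 48.4 percentile in old and 49.7 in young cells.

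**Figure D2:**
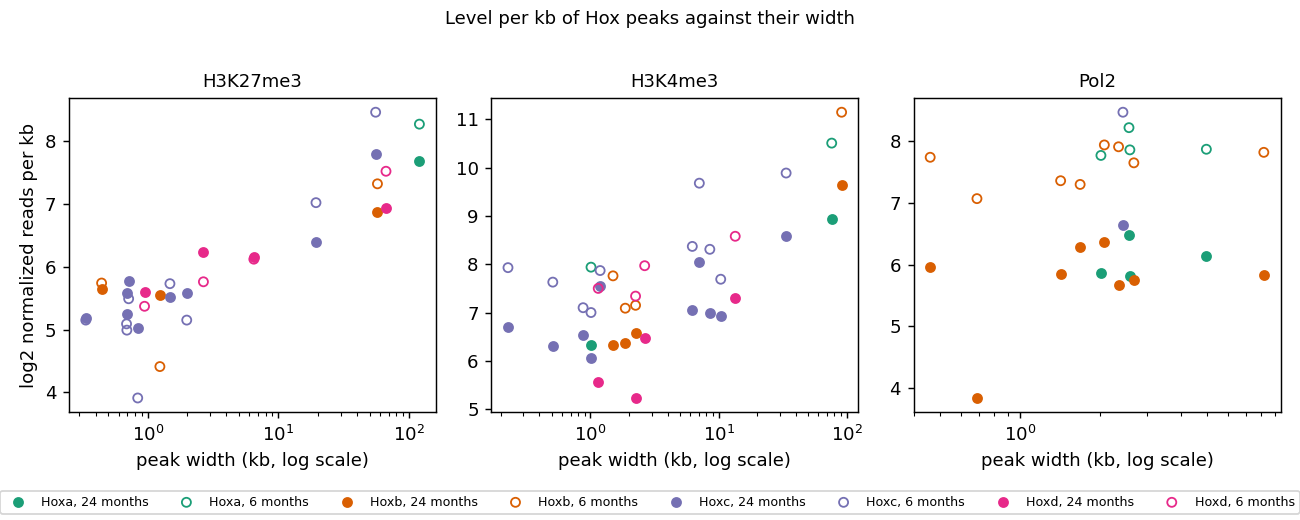
Log2 normalized reads per kb against peak width in kb (log scale) for peaks annotated to Hox genes (all but 1 Pol2 peak), in the H3K27me3, H3K4me3 and Pol2 tables. Filled circles are 24 months and open circles 6 months, coloured by cluster, each from the authors' group means without replicate error. The Hoxb6- and Hoxa4-annotated H3K4me3 domains and the Hoxc11- and Hoxa10-annotated H3K27me3 domains have the highest levels per kb of their panels at 6 months, and H3K4me3 and Pol2 lie lower at 24 months.

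In Hoxd 4 of 4 H3K4me3 peaks annotated to Hox genes were called lower, beside 79.1% of all H3K4me3 peaks. Of these, 2, at Hoxd1 and Hoxd3, had the most negative differences among the 20 Hox peaks. Hoxd1 (2.25 kb at chr2:74762030-74764282) had log2 levels of 6.4 in old and 8.51 in young cells of the authors' deposited table, a log2 difference of -2.11 (FDR 9.64e-06). For Hoxd3, a neck vertebra gene, the log2 levels were 5.78 in old and 7.71 in young cells in the authors' deposited table, a log2 difference of -1.92 (FDR 7.05e-05). Hoxd9 had 7.88 in old and 9.37 in young cells, a log2 difference of -1.49 (FDR 1.28e-05) in the authors' deposited table. Hoxd8 carried the widest of the 4, 13.5 kb, with log2 levels of 11.06 in old and 12.33 in young cells and a log2 difference of -1.26 (FDR 2.61e-05) in the authors' deposited table. All 4 lay wholly within H3K27me3, and none had a Pol2 peak.

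The remaining clusters gave calls on most promoter peaks and none on several small flanking ones, beside 79.1% of all H3K4me3 peaks called lower. In Hoxa both peaks were called, the second being a 1.01 kb peak annotated to Hoxa9 with log2 levels of 6.33 in old and 7.95 in young cells (log2 difference -1.62, FDR 0.000645) in the authors' deposited table. In Hoxb 2 of 4 were called. A 1.5 kb Hoxb1 peak that begins within the gene had log2 levels of 6.91 in old and 8.35 in young cells (log2 difference -1.44, FDR 0.000295) in the authors' deposited table. The 1.87 kb peak over the Hoxb1 start site was not called, with a log2 difference of -0.73 (FDR 0.106) in the authors' deposited table. Nor was a 2.25 kb peak upstream, with -0.57 (FDR 0.185) in the authors' deposited table. In Hoxc 6 of 10 were called, among them Hoxc9 (log2 levels 10.1 in old and 11.41 in young cells, log2 difference -1.31, FDR 4.62e-06) and Hoxc4 (log2 levels 9.7 in old and 11.01 in young cells, log2 difference -1.31, FDR 5.89e-05) in the authors' deposited table. The Hoxc4 peak with the smallest difference, 1.19 kb, had -0.32 with an FDR of 0.492 in the authors' deposited table.

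Of the 20 Hox H3K4me3 peaks, 12 overlapped an H3K27me3 peak by at least 1 bp, and 8 had at least 50% of their width within one. Over all H3K4me3 peaks 13.2% overlapped one. The 12 had a median log2 difference of -1.50 and the 8 without overlap -0.75 in the authors' deposited table. The 8 were all annotated to Hoxb1 or Hoxc4, and the 12 include the Hoxc13 promoter peak through an overlap of 26 bp. With the 50% rule the medians were -1.41 inside and -1.13 outside, so the gap depends on the overlap asked for. The peaks share neighbours and libraries, and the difference between these classes was not tested.

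**Figure D3:**
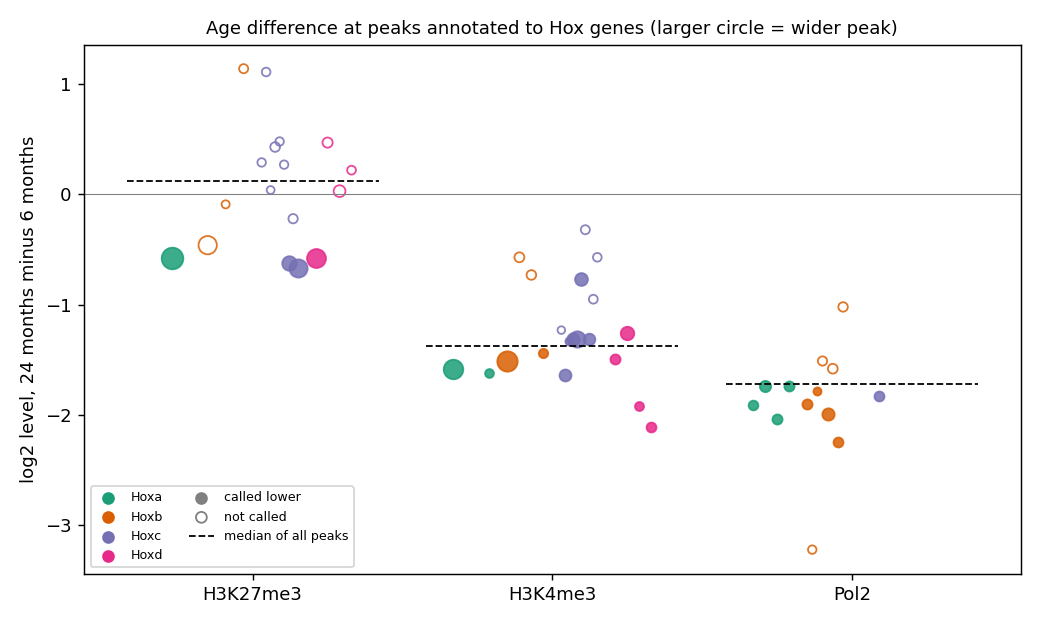
Log2 level at 24 months minus 6 months for peaks annotated to Hox genes (1 Pol2 peak is not drawn), by table and cluster, with circle size growing with peak width. Filled circles were called lower and open circles not called (authors' FDR under 0.05), and dashed lines give the median of all peaks in that table, 0.12, -1.37 and -1.72 from left to right. The 5 wide H3K27me3 peaks lie below 0, and the H3K4me3 and Pol2 peaks spread around their table's median.

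Pol2 was called lower in old cells at 10 of 14 Hox peaks and higher at 0, beside 52.9% of all 6789 Pol2 peaks lower and 0.0442% higher. The median log2 difference was -1.86 over Hox peaks and -1.72 for the whole of the authors' deposited table. By cluster 5 of 5 peaks were called in Hoxa, 4 of 8 in Hoxb and 1 of 1 in Hoxc, with none present in Hoxd. All 14 had negative differences, as had 91.7% of all Pol2 peaks, and the scaling of these libraries is likewise unknown.

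Pol2 in Hoxa was called lower at the genes used in the head, neck and trunk. Hoxa3 had 7.19 in old and 9.23 in young cells, a log2 difference of -2.04 (FDR 0.0192), and Hoxa2 6.87 in old and 8.78 in young cells, a log2 difference of -1.91 (FDR 0.019), both in the authors' deposited table. The trunk genes Hoxa5 (log2 levels 8.46 in old and 10.19 in young cells, FDR 0.0341) and Hoxa7 (7.84 in old and 9.58 in young cells, FDR 0.0435) each had a log2 difference of -1.74 in the authors' deposited table.

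In Hoxb the widest Pol2 peak, 8.19 kb over Hoxb5 and Hoxb6, had log2 levels of 8.86 in old and 10.85 in young cells of the authors' deposited table, a log2 difference of -1.99 (FDR 0.0232). A Hoxb4 peak had log2 levels of 6.89 in old and 9.13 in young cells, a log2 difference of -2.24 (FDR 0.0118), in the authors' deposited table. The most negative Hox value, -3.22 at a 0.69 kb Hoxb7 peak, was not called (log2 levels 3.3 in old and 6.53 in young cells, FDR 0.092) in the authors' deposited table. Hoxb3, with log2 levels of 7.03 in old and 8.05 in young cells, had -1.02 (FDR 0.258) in the authors' deposited table. The one Hoxc peak, at Hoxc6, had log2 levels of 7.92 in old and 9.75 in young cells and a log2 difference of -1.83 (FDR 0.0301) in the authors' deposited table. The called Pol2 peaks described here were thus at genes of paralogs 2 to 7.

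The ATAC-seq table gives counts per library for 7849 peaks that the authors selected for differing between ages, with an absolute log2 ratio of at least 0.5 and a deposited significance score of at least 2. Any Hox peak in it had to differ, so that its direction is a description. Of 8 Hox peaks, 7 had lower mean counts in old cells and 1, at Hoxa2, higher, beside 85.9% of all listed peaks lower. Counts over the listed peaks summed to 1572998 to 1946804 in old and 2456110 to 2773284 in young libraries, so scaling decides much of what is called. With TMM scaling, which sets the bulk of listed peaks to no change, edgeR called 0 of 8 Hox peaks lower and 1 higher, beside 0.701% of listed peaks lower and 13.9% higher. With the counts as deposited edgeR called 5 lower and 0 higher, beside 46.4% lower and 5.43% higher. The 2 scalings differ by a median of 0.59 on the log2 scale, and which is nearer to the truth was not tested.

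At the Hoxa2 promoter (chr6:52163751-52164450) the counts were 228, 205, 352 and 275 in old and 220, 170, 172 and 155 in young libraries. Old libraries were mostly higher, with 1 old value below the highest young one. The means were 265.0 ± 64.9 in old and 179.2 ± 28.2 in young cells (SD, n = 4 each). The log2 fold change was 1.16 with TMM (edgeR FDR 0.00314) and 0.56 on the unscaled counts (edgeR FDR 0.0633). An exact two-sided permutation test on the unscaled counts gave a p of 0.0571. Leaving out any one library, it was called in 8 of 8 fits with TMM and in 0 of 8 without scaling. Since the listed peaks were selected for differing between ages, these calls are a description. TMM also raises the fold changes of the listed peaks by a median of 0.59 on the log2 scale. The Hoxa2 ATAC-seq peak lies within the Hoxa4-annotated H3K4me3 domain and touches the Hoxa2 Pol2 peak, both called lower in old cells.

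In Hoxb all 3 listed peaks had every old library below every young one, as had 35.8% of all listed peaks (4.88% had every old library above every young one), and each gave an exact two-sided permutation p of 0.0286 on the unscaled counts, the smallest that 4 against 4 allows. The Hoxb1 peak, 17493 bp from its start site at chr11:96383251-96383950, had counts of 421, 412, 441 and 360 in old and 588, 630, 620 and 523 in young libraries. The Hoxb3 intron peak (chr11:96332051-96333250) had 371, 379, 354 and 287 in old and 484, 642, 444 and 636 in young libraries. A peak just downstream of Hoxb5, chr11:96306951-96307250, had 78, 75, 60 and 70 in old and 112, 132, 122 and 130 in young libraries. Unscaled log2 fold changes were -0.53 at Hoxb1 (edgeR FDR 0.0314), -0.67 at Hoxb3 (0.0247) and -0.81 at Hoxb5 (0.0428). With TMM they were 0.05, -0.08 and -0.22, each with an edgeR FDR of 1.0. The sign at Hoxb1 thus differs between scalings, which shift all peaks.

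In Hoxc the 4 listed peaks were at Hoxc4, Hoxc6, Hoxc12 and Hoxc13. The Hoxc4 promoter peak (chr15:103034651-103035050) had 137, 76, 90 and 34 counts in old and 153, 214, 119 and 163 in young libraries, with the highest old library above the lowest young one. The Hoxc6 intron peak (chr15:103002151-103002600) had 171, 201, 127 and 96 in old and 149, 260, 180 and 254 in young libraries. The peak 4503 bp upstream of Hoxc12 (chr15:102931851-102932350) had 169, 158, 201 and 133 in old and 225, 341, 177 and 261 in young libraries. The groups overlapped at these 3 peaks. Exact two-sided permutation p on the unscaled counts were 0.0571 at Hoxc4, 0.143 at Hoxc6 and 0.0571 at Hoxc12. Unscaled log2 fold changes were -0.94 at Hoxc4 (edgeR FDR 0.0435), -0.50 at Hoxc6 (0.113) and -0.60 at Hoxc12 (0.0591). With TMM they were -0.40, 0.07 and -0.02, with edgeR FDR of 0.946, 1.0 and 1.0, so the sign at Hoxc6 differs as well.

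No listed peak was annotated to a Hoxd gene. One annotated to LOC102634401, between Hoxd3 and Hoxd1 at chr2:74749551-74750350, had 348, 290, 235 and 146 counts in old and 349, 439, 466 and 289 in young libraries, and the groups overlapped. Its log2 fold change was -0.60 unscaled (edgeR FDR 0.0585) and -0.05 with TMM (edgeR FDR 1.0).

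Fewer of the unscaled calls were made with 7 libraries, while their fold changes stayed close. Without 1 library the count of Hox peaks called lower was 4 without old replicate 1, 3 without old replicate 2, 1 without old replicate 3 and 1 without old replicate 4. It was 3, 1, 1 and 2 without young replicates 1, 2, 3 and 4. Hoxb3 was called in 7 of these 8 fits (log2 fold changes -0.76 to -0.58), Hoxb1 in 4 (-0.58 to -0.47), Hoxc13 in 4 (-1.50 to -1.03), Hoxc4 in 1 (-1.28 to -0.68) and Hoxb5 in 0 (-0.86 to -0.74, edgeR FDR 0.0523 to 0.0826).

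**Figure D4:**
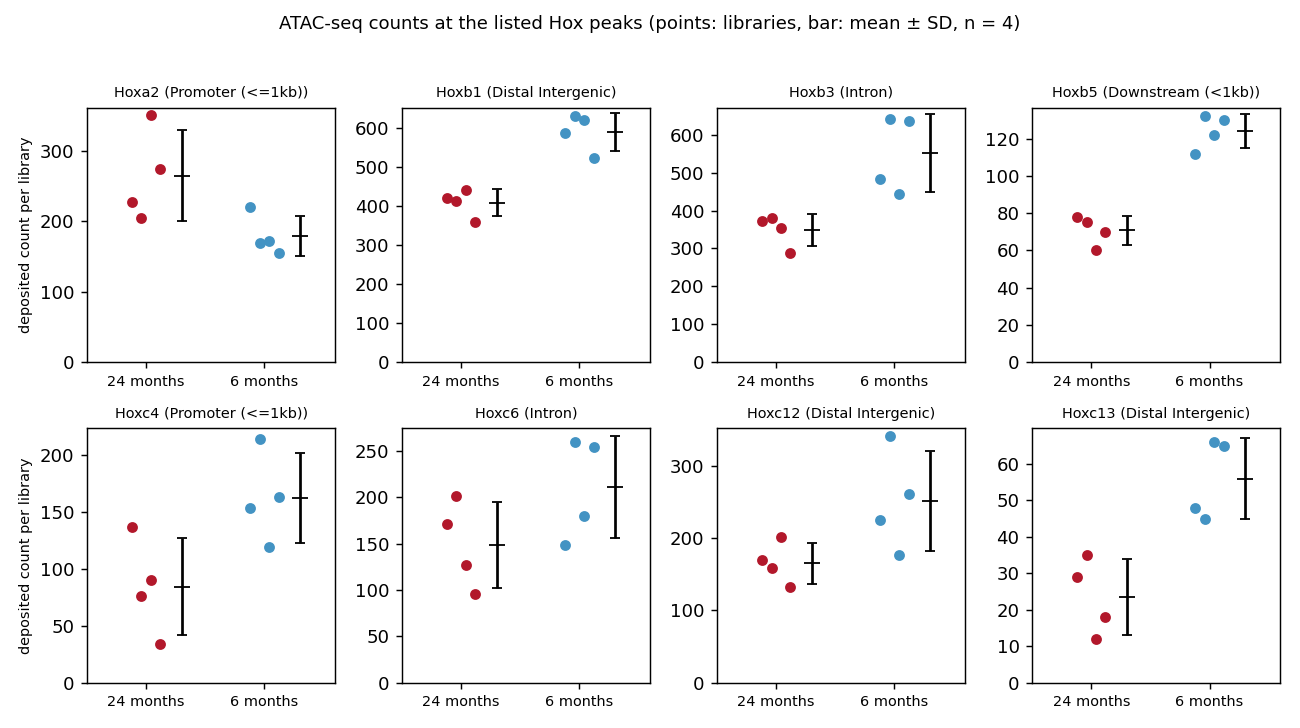
Deposited ATAC-seq counts per library (vertical axis) at the 8 listed Hox peaks, with 24 months left of 6 months, and the mean ± SD of 4 libraries beside each group. Hoxa2 lies mostly higher at 24 months, and at Hoxb1, Hoxb3, Hoxb5 and Hoxc13 all 24-month libraries lie below all 6-month ones, as at 35.8% of all listed peaks.

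Hoxc13, the hair gene of the clusters, was represented in 3 tables. Its 7.08 kb H3K4me3 peak (chr15:102919580-102926659) covers the promoter, with log2 levels of 10.86 in old and 12.5 in young cells of the authors' deposited table, a log2 difference of -1.64 and the lowest FDR of any Hox H3K4me3 peak, 1.44e-07. A second one of 0.227 kb upstream had log2 levels of 4.56 in old and 5.79 in young cells, a log2 difference of -1.23 and an FDR of 0.0581 in the authors' deposited table. A 19.4 kb H3K27me3 peak has its near end 1498 bp upstream of the annotated start site and meets the promoter peak with an overlap of 26 bp. Its log2 level was 10.68 in old and 11.3 in young cells of the authors' deposited table, a log2 difference of -0.62 with an FDR of 0.00126. H3K27me3 covered 0% of the Hoxc13 gene itself, and no Pol2 peak was listed on it.

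Further upstream 6 small H3K27me3 peaks annotated to Hoxc13, 0.336 to 1.99 kb wide, had log2 differences of 0.04 to 1.11 in the authors' deposited table and none was called. A listed ATAC-seq peak 60281 bp upstream (chr15:102860701-102860850) had 29, 35, 12 and 18 counts in old and 48, 45, 66 and 65 in young libraries. All old libraries lay below all young ones, as at 35.8% of all listed peaks (exact two-sided permutation p 0.0286 on the unscaled counts). Since the listed peaks were selected for differing between ages, this is a description. Its log2 fold change was -1.25 on the unscaled counts (edgeR FDR 0.0302) and -0.67 with TMM (edgeR FDR 0.552). Genes that Hoxc13 is known to act on or with in hair were taken as a list of 18. Of these 6 had an H3K4me3 peak, 8 peaks in all, and 8 of 8 were called lower, beside 79.1% of all H3K4me3 peaks, the lowest p being at Msx2, a homeobox gene of the hair matrix (log2 levels 9.99 in old and 11.62 in young cells, log2 difference -1.64, FDR 6.13e-08) in the authors' deposited table. None of the 18 had a Pol2 peak or a row in the RNA table.

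In RNA, Hoxa3 was the one Hox gene listed. The authors' deposited table gives a mean normalized count of 496, a log2 fold change of -0.52 for old against young (SE 0.17) and a DESeq2 adjusted p of 0.0712, which was not called at 0.05. That table holds the 597 genes with an adjusted p up to 0.1, 56.8% of them called, and has no values per sample. For the other Hox genes the RNA level is not analysed here. Hoxa3 also had the called Pol2 peak above, and its whole body lay in the Hoxa4-annotated H3K4me3 domain.

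Genes that work with Hox proteins or mark their chromatin were counted in lists. The Hox cofactors of the Pbx, Meis and Pknox families, which bind DNA with Hox proteins, had 19 H3K4me3 peaks at 8 of 9 genes, of which 11 peaks were called lower, beside 79.1% of all H3K4me3 peaks. The lowest p was at Pknox1 (log2 levels 9.78 in old and 11.42 in young cells, log2 difference -1.64, FDR 1.29e-07) in the authors' deposited table. Pol2 was called lower at 6 of 6 peaks of 5 cofactor genes, beside 52.9% of all Pol2 peaks, such as Pbx2 (log2 levels 4.42 in old and 8.17 in young cells, log2 difference -3.75, FDR 0.000552) in the authors' deposited table. Of 41 H3K27me3 peaks at cofactor genes 2 were called lower and 1 higher, all 3 at Meis2, beside 2.6% lower and 2.66% higher of all H3K27me3 peaks. The 2 called lower were 28.6 and 16.9 kb wide, and peaks of 10 kb or more were called lower in 15.6% of cases. The peak over the Meis2 promoter, 28.6 kb wide, was called lower, with log2 levels of 11.2 in old and 11.93 in young cells, a log2 difference of -0.74 and an FDR of 1.2e-06 in the authors' deposited table. The one called higher, 0.29 kb wide, had a log2 level of 4.09 in old cells and in young cells -0.17, the lowest level of the authors' deposited table at that age (FDR 0.0452).

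Polycomb genes had H3K4me3 peaks at 23 of 23 genes, with 35 of 42 peaks called lower, and the Trithorax and demethylase list at 13 of 13 genes, with 17 of 21 peaks called lower. Both are close to the 79.1% of all H3K4me3 peaks. In the authors' deposited table the lowest p fell to Eed, which binds H3K27me3 (log2 levels 9.99 in old and 11.69 in young cells, log2 difference -1.70, FDR 6.72e-08), and to Men1, the menin subunit of MLL complexes (log2 levels 8.88 in old and 10.8 in young cells, log2 difference -1.92, FDR 1.43e-08). In RNA, Phf1, a Polycomb accessory protein, was called lower at -0.63 (DESeq2 adjusted p 0.0246) and Phc1 had -0.59 (DESeq2 adjusted p 0.0527) in the authors' deposited table. Of the genes and non-coding RNAs beside the clusters, Mtx2, a mitochondrial gene next to Hoxd, was called higher in RNA at 0.50 (DESeq2 adjusted p 0.0424) in the authors' deposited table.

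ParaHox genes, relatives of the Hox genes outside the clusters, gave an H3K4me3 peak at Gsx1 and Gsx2, 2 of the 6 genes of the ParaHox and Cdx list. Both were called lower, as were 79.1% of all H3K4me3 peaks. Gsx2 also lay under a 32.9 kb H3K27me3 peak with log2 levels of 12.25 in old and 12.78 in young cells, a log2 difference of -0.53 and an FDR of 0.000292 in the authors' deposited table. It was the 1 called of 18 H3K27me3 peaks of the list, and 15.6% of all peaks of 10 kb or more were called lower. Across families, H3K27me3 was called lower at 23.5% of Hox peaks, 20.8% of Fox peaks and 14.7% of peaks of homeobox genes outside the clusters. The share over all H3K27me3 peaks was 2.6%. For Pol2 the shares were 71.4% for Hox (10 of 14 peaks), 27.6% for Fox and 33.3% for other homeobox genes, beside 52.9% of all Pol2 peaks. The differences between families were not tested.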

How the data were processed

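Hox members and gene lists were chosen with earlier results of these data known. Per the submitters' processing notes, the ChIP-seq data were made with BWA 0.7.15, MACS2 2.2.7.1 and DiffBind 2.14.0 on GRCm38, ATAC-seq was aligned with BWA 0.7.12, and RNA was processed with STAR 2.5.2b, featureCounts and DESeq2 1.22.2.

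Per the file headers, the deposited ChIP-seq tables give log2 mean normalized reads per age, a log2 difference, a p-value and an FDR per merged peak, without values per sample. Their difference is young minus old, and its sign was turned here. The deposited ATAC-seq table gives counts per library, the authors' log2 ratio and a score headed −LogP (taken as −log10 p only to name its unit, since the base of the logarithm is not stated), and the deposited RNA table a mean normalized signal, a log2 fold change, a Wald score, a p-value and an adjusted p-value. Library depths of the ChIP-seq and RNA-seq samples are unknown.

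ATAC-seq counts were tested with edgeR 4.0.16 (quasi-likelihood, two-sided, Benjamini-Hochberg over 7849 peaks) with TMM and, as an alternative, no scaling, and with DESeq2 1.42.0 in R 4.3.3. The script was tested on simulated data. Single peaks were also compared by an exact permutation test of sample labels. ChIP-seq and RNA calls used the authors' FDR or adjusted p under 0.05. Overlaps were found with Python 3.11.15 and pandas 2.3.3 on peak coordinates. Named peaks were those with the lowest p per cluster, the highest level, any opposite call and those of Hoxc13, and where a table had at most 12 Hox peaks, all. Fitted p-values set the difference between ages against the spread between samples, which the series calls biological replicates. The permutation p compares the observed difference with those under all other labellings of the libraries. One member enters the counts over all Hox genes and peaks but is not reported here by itself.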

Additional observations from a re-analysis of the deposited data

Results flagged for a closer look

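One value among 20 groups of 4 libraries stood far from the rest of its group. At the promoter of Mira, a non-coding RNA between Hoxa6 and Hoxa7, young replicate 1 had 53 ATAC-seq counts, against 83, 79 and 82 in the other young libraries. The old libraries had 51, 16, 53 and 27 counts. Its gap to the nearest young value, relative to the range, exceeded Dixon's 95% limit for 4 samples. Chance flags about 1 in 20 such groups.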

How the results depend on the processing

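Of 285 alternative values, 229 were classed as the same as the main result. That class is broad and includes counts that moved. H3K4me3 Hox peaks called lower were 12 at an FDR under 0.01 and 16 under 0.1, against 14. Taking peaks by coordinates gave 19. Among the 229, ATAC-seq fold changes that were not called changed sign under some settings at Hoxb1, Hoxb3, Hoxc6 and Hoxc12. ATAC-seq calls turned on scaling. Without scaling, 5 Hox peaks were called lower and 0 higher, against 0 and 1 with TMM. Leaving out each library in turn gave 1 to 4 lower and 0 to 0 higher calls without scaling, and 0 lower and 1 higher with TMM. The log2 fold change at Hoxb1 was 0.05 with TMM and -0.53 unscaled, and -0.53, -0.58, -0.55 and -0.53 in the 4 unscaled fits without 1 library that called it. The Hoxc13 ATAC-seq peak has no value with a mean count of at least 50, since that filter removes it.

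Same-numbered old and young libraries had correlations of -0.03, -0.11, 0.04 and -0.19, so the numbers do not pair them. With the replicate number as a block, 0 peaks were called lower and 1 higher with TMM, and 0 higher and 0 lower without scaling, where the fold changes stayed close (-0.53 at Hoxb1, -0.65 at Hoxb3, -0.81 at Hoxb5, -1.06 at Hoxc4 and -1.31 at Hoxc13, edgeR FDR 0.0552 to 0.0737).

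The median H3K27me3 difference of Hox peaks, 0.04, was -0.22 with each gene weighted equally and -0.58 with each base weighted equally. For H3K4me3 these were -1.44 and -1.51, against -1.31. At an FDR under 0.01, 1 Pol2 Hox peak was called, against 10. At an adjusted p under 0.1, 1 Hox gene was called in RNA. Only genes with an adjusted p up to 0.1 are listed, so that call was fixed in advance. The ChIP-seq and RNA tables hold no values per sample, so no library could be left out there, and their precision rests on 2 or 3 samples per age.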
